A study of Mus musculus with 12 samples.

Results

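The 34 genes described here carry fatty acids from activation to the end of beta-oxidation. They were taken by name, as the rows of the deposited gene table whose symbol was on a list of 34 fatty acid genes, and all 34 were found among its 17922 genes. RNA-seq had been done on primary chondrocytes of the ribs, which are cartilage cells, in 4 groups of 3 samples. LDH knockout cells came from mice at postnatal day 5 with Col2-Cre, 2 floxed Ldha alleles (Ldha fl/fl) and loss of 1 Ldhb allele (Ldhb+/-). Acly knockout cells came from embryos at E18.5 with Col2-Cre and 2 floxed Acly alleles (Acly fl/fl). Each knockout had littermate controls of its own age, called only control in the labels, and whether these carried Cre or floxed alleles is not given in the sources used here. All mice were of a mixed strain in which C57BL/6 dominated, and all cells were freed with collagenase, kept in culture overnight and lysed. Col2-Cre is a recombinase driven by the promoter of the cartilage collagen gene Col2a1, so cells of the culture that never used that promoter keep the floxed gene. Whether a sample is 1 animal or a pool is not given either, so the p-values below measure only the spread between these samples.

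A fatty acid is taken up and joined to coenzyme A by transport proteins and acyl-CoA synthetases, and the carnitine shuttle then moves its acyl chain into the mitochondrion. There, each round of beta-oxidation runs through an acyl-CoA dehydrogenase, a hydratase, a hydroxyacyl-CoA dehydrogenase and a thiolase, while the electrons leave through the electron transfer flavoprotein. Very long and branched chains are first shortened in peroxisomes, and nuclear receptors of the PPAR family with their PGC-1 coactivators raise transcription of many of these genes. Growth cartilage has no blood vessels and is known for a metabolism that leans on glycolysis. Ldha and Ldhb encode the subunits of lactate dehydrogenase, which closes that route. Acly makes cytoplasmic acetyl-CoA, the source of malonyl-CoA, which inhibits the entry enzyme Cpt1.

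Libraries held 26362407 to 28154143 expected counts, at which 3 counts are 0.1066 to 0.1138 CPM (counts per 1000000 counts). Ldha fell from 845 ± 51.4 to 86.7 ± 6.64 CPM in the LDH knockout (SD, n = 3), with an adjusted p of 3.26e-07 by edgeR. Ldhb was at 15.1 ± 1.14 CPM there against 11.7 ± 0.529 CPM, with an adjusted p of 0.115 by edgeR. All 3 LDH knockouts, at 14.6, 16.4 and 14.2 CPM, lay above all 3 controls, at 12.3, 11.3 and 11.4 CPM. The labelled loss of 1 Ldhb allele is thus not seen as a lower level of its transcript. The Ldhb genotype of the controls is not given, so this level cannot decide on that part of the label. Acly fell from 197 ± 4.81 to 74.2 ± 18.9 CPM in its own knockout, with an adjusted p of 0.0313 by edgeR. That call was lost in 8 of 17 alternatives, among them the fits without knockout replicate 1 (0.0603) or 3 (0.0736) and without control replicates 1 to 3 (0.109, 0.145 and 0.233). Summed CPM of 10 chondrocyte markers, Col2a1 and Acan among them, was higher in both knockouts. It was 18144 to 27467 against 9981 to 11554 CPM for LDH, and 14234 to 17113 against 8479 to 9273 CPM for Acly. Most of it was Col2a1, at 18466 against 9113 CPM for LDH and 11922 against 5767 CPM for Acly. By edgeR 6 of the 9 tested markers were called higher for LDH and 2 of 10 for Acly. In the Acly set the groups were separate for 4 of 10 (40.0%), against 22.0% of all genes, and Hapln1 had a log2 fold change of -0.08. Matn1 was at 0 to 0.261 CPM in the LDH set and was not tested there. Summed CPM of 10 adipocyte markers was 60.4, 99.3 and 39.2 in LDH knockout replicates 1 to 3 and 19.7 to 22.0 in their controls, against 62.6 to 115 and 41.1 to 98.2 in the Acly set. Most of the LDH control sum was Lipe and Pparg, at 12.1 and 5.75 CPM. Lipe was at 12.1 CPM in the LDH knockouts too, whereas Plin1 was at 4.94 against 0.168 CPM and Car3 at 15.0 against 0.869 CPM. By edgeR 6 of 8 tested adipocyte markers were called higher for LDH and 0 of 8 for Acly, with 0 there at an unadjusted p under 0.05 as well, and of the 10 only Lep was at 0 in a whole group, the Acly controls. Summed CPM of 4 Y-linked genes was at most 0.0366 in the LDH knockouts and 91.9, 100 and 0.601 in LDH control replicates 1 to 3, and 0.0743, 79.0 and 83.3 in Acly knockouts against 0.373, 117 and 2.81 in their controls. Acly knockout replicate 2 stood apart. Over the 34 genes, its median absolute departure from the mean of the other 2 samples of its group was 0.21 on the log2 scale. In the other 11 samples this departure was 0.06 to 0.13. Over all tested genes it was 0.25 in that replicate and 0.11 to 0.19 in the other 11 samples. In such bulk samples fewer cells of a type and less RNA per cell cannot be told apart.

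Most of the pathway was well expressed in these chondrocytes. Levels between genes were compared in the deposited TPM (transcripts per 1000000 transcripts), which allows for gene length. The mean TPM over all 12 samples was at least 10 for 29 of the 34 genes, and their median was 29.2 against 7.3 for all genes in the table and 16.4 for the genes tested in the LDH comparison. The summed TPM of all 34 was 1069 ± 28.0 in LDH knockouts against 1060 ± 21.6 in the controls, and 1243 ± 51.8 in Acly knockouts against 1263 ± 23.8 (SD, n = 3).

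The gene with the highest mean was Hadha, the alpha subunit of the mitochondrial trifunctional protein, which hydrates and oxidises long chains. Hadha was at 114, 112 and 110 TPM in LDH knockouts, 105, 106 and 109 in their controls, 101, 110 and 110 in Acly knockouts and 109, 104 and 110 in their controls. All 12 samples therefore lay between 101 and 114 TPM. Etfb, the beta subunit of the electron transfer flavoprotein, came next at a mean of 89.1 TPM. Etfb was at 92.6, 87.6 and 77.6 TPM in LDH knockouts, 80.8, 72.6 and 79.7 in their controls, 104, 91.1 and 110 in Acly knockouts and 91.5, 97.8 and 83.5 in their controls. The ranges of both genes overlapped, since Etfb reached 110 TPM in its highest sample.

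At the other end were 5 genes with a mean under 5 TPM. They were Cpt1b, the muscle isoform of the entry enzyme (3.75), Ehhadh, a bifunctional enzyme of peroxisomes (1.63), the coactivators Ppargc1b (0.979) and Ppargc1a (0.455), and Ppara, the fatty acid receptor best known from liver (0.336). Another receptor of that family, Ppard, ranked the sixth of all 34 with a mean of 60.0 TPM. Ppard thus lay above Ppara in every sample, at 49.3 to 77.3 against 0.18 to 0.51 TPM. Brown fat is known for high Cpt1b and Ppargc1a, and its 5 markers summed to 2.20 to 5.96 CPM in the 12 samples.

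**Figure D1:**
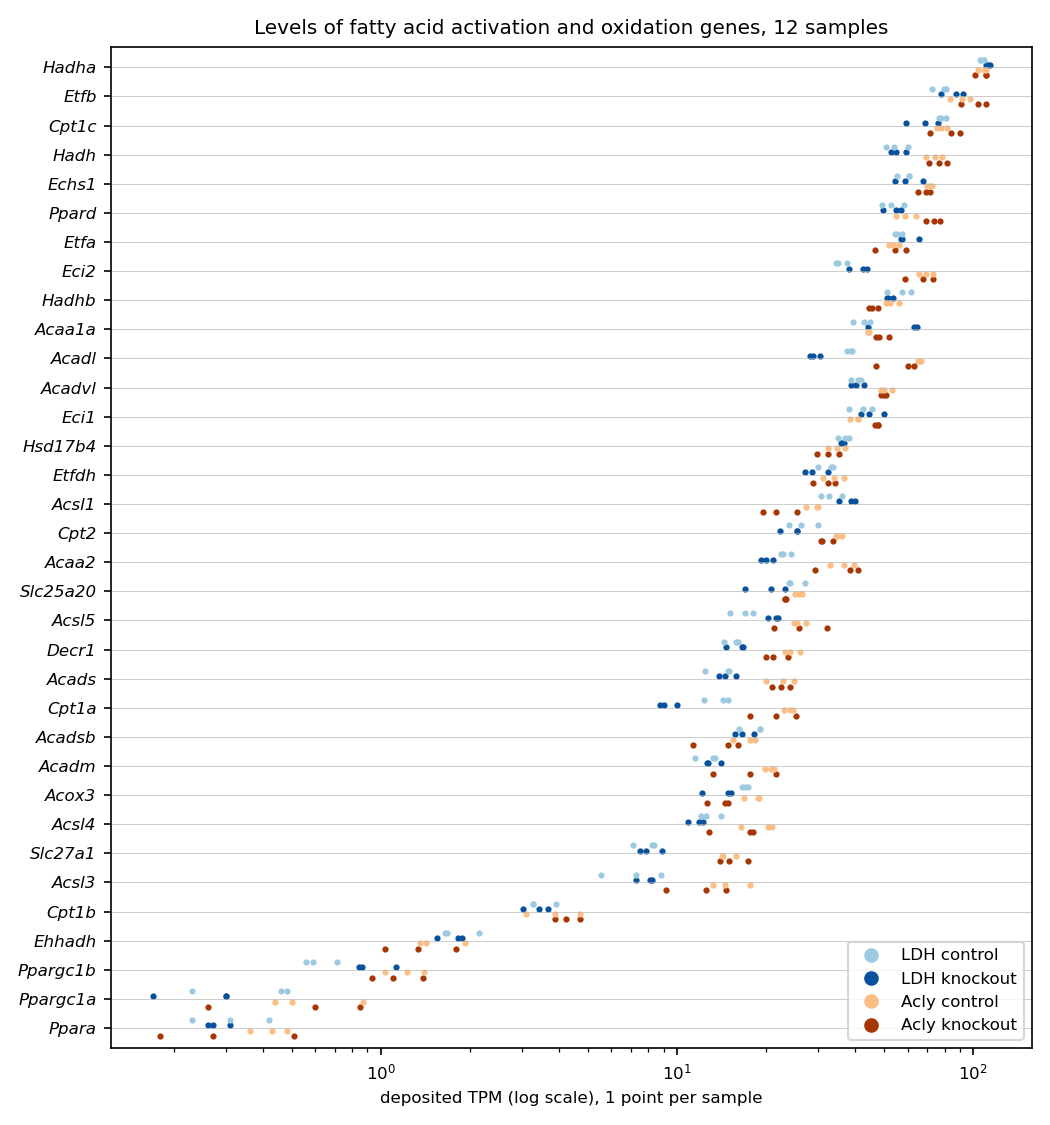
Deposited TPM of the 34 genes on a log axis, 1 point per sample, coloured by group and ordered by the mean over 12 samples. Hadha leads with all samples at 101 TPM or above, and 5 genes lie under 5 TPM.

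Within the Cpt1 family most transcripts were Cpt1c. This isoform is known mainly from neurons and has little catalytic activity. The enzymes that pass the acyl chain to carnitine at the outer mitochondrial membrane are those of Cpt1a and Cpt1b. Cpt1c was at 68.8, 59.1 and 76.1 TPM in LDH knockouts, 77.8, 76.5 and 80.7 in their controls, 71.7, 90.4 and 83.9 in Acly knockouts and 75.5, 81.3 and 78.0 in their controls. Of the summed TPM of Cpt1a, Cpt1b and Cpt1c, Cpt1c made up 81.9% ± 1.66 in LDH controls and 73.8% ± 1.13 in Acly controls (SD, n = 3). Cpt1a, the isoform of liver and most other tissues, made up 14.4% ± 1.45 and 22.5% ± 0.542. In the knockouts Cpt1a made up 11.5% ± 0.933 for LDH and 20.0% ± 3.71 for Acly, the latter with 15.7% in replicate 2 and 22.2% and 22.1% in the other samples.

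The acyl-CoA synthetases were spread more evenly. In LDH controls Acsl1 made up 47.4% ± 1.25 of the summed TPM of Acsl1, Acsl3, Acsl4 and Acsl5, and in Acly controls it made up 32.5% ± 1.13. Acsl5 took 23.9% ± 0.0707 in LDH controls and 27.0% ± 1.11 in LDH knockouts, and 29.1% ± 1.20 and 34.2% ± 1.39 in the Acly set. Acsl4, which prefers arachidonic acid, took 18.4% ± 0.673 in LDH controls and 14.8% ± 0.798 in LDH knockouts. Knockout and control samples did not overlap in these shares of Acsl5 in either set or of Acsl4 in the LDH set. The share of Cpt1a did not overlap in the LDH set either. In the Acly set the level of Acsl5 itself overlapped, at 25.9 ± 1.25 TPM in controls and 26.4 ± 5.45 TPM in knockouts. Among the 5 acyl-CoA dehydrogenases, the share of Acadl was 31.0% ± 0.948 in LDH controls and 25.5% ± 1.48 in LDH knockouts, again with no overlap, and 37.3% ± 0.957 and 35.2% ± 2.65 in the Acly set, where the samples overlapped. The share of Acadvl had the opposite difference, with 32.6% ± 1.09 in LDH controls and 35.4% ± 0.891 in LDH knockouts, also with no overlap. Shares of a family add up to the whole, so a fall of Acadl raises those of the others. The level of Acadvl itself was 40.4 ± 1.67 TPM in LDH controls and 40.5 ± 2.09 TPM in LDH knockouts. These shares are descriptions and were given no test, and how often shares separate in other families was not counted.

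**Figure D2:**
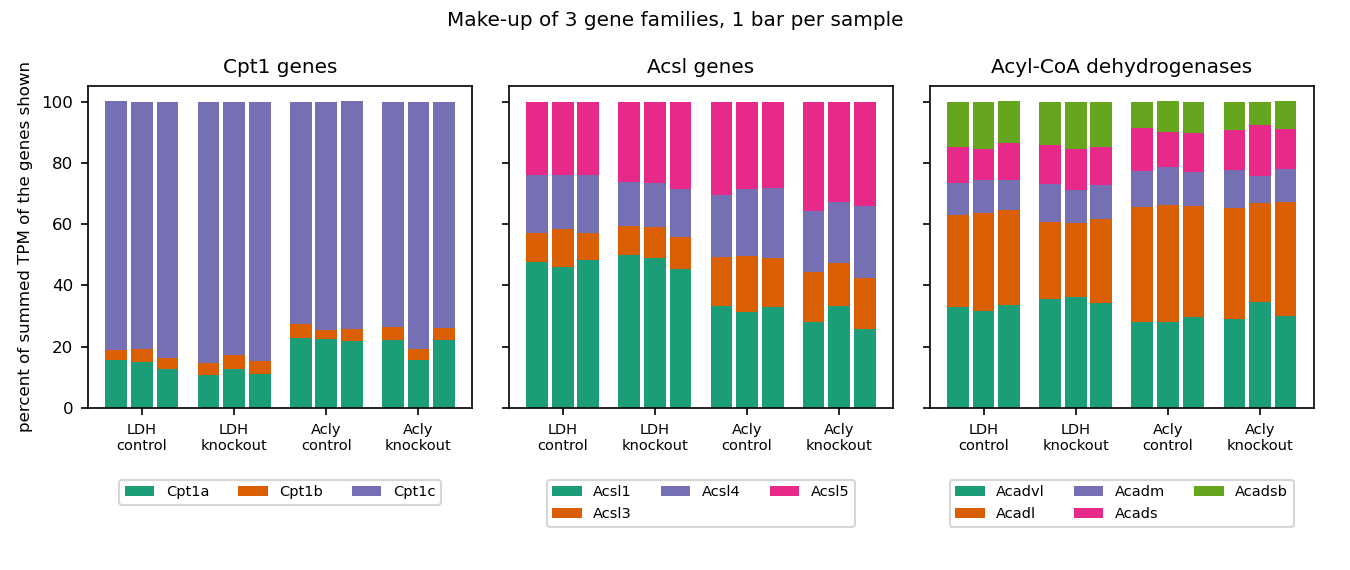
Share of each gene in the summed TPM of its family, in percent, with 1 bar per sample for the Cpt1 genes, the Acsl genes and 5 acyl-CoA dehydrogenases. Cpt1c takes most of each Cpt1 bar, and the Acadl band is narrower in LDH knockouts (25.5%) than in their controls (31.0%).

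The levels of several enzymes differed between the control groups of the sets. Eci2, which moves double bonds so that unsaturated chains can be degraded, was at 35.6 ± 1.68 TPM in LDH controls and 69.3 ± 3.64 TPM in Acly controls. Acadl was at 38.3 ± 0.892 and 65.9 ± 0.907 TPM and Cpt1a at 13.8 ± 1.32 and 23.9 ± 0.844 TPM in the same order (SD, n = 3). None of these 3 genes had overlapping values between the control groups, but the share of all genes that separate in this way was not counted. Summed markers also differed, at 13.5 to 26.7 CPM in LDH and 263 to 359 CPM in Acly controls for skeletal muscle. For endothelial cells they were 8.82 to 13.8 and 79.2 to 94.3 CPM. The sum of chondrocyte markers was lower in Acly controls, through Col2a1 alone, at 5767 against 9113 CPM in LDH controls. Every other chondrocyte marker had a higher mean in Acly controls, such as Acan at 1145 against 795 CPM and Col9a1 at 268 against 60.1 CPM. The CPM of each set were scaled in a separate fit. Age, mouse line, cell make-up and any batch cannot be told apart in these differences, and they were not tested.

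The LDH knockout, which the submitters made to lower glycolysis, was compared with its controls. Neither glycolysis nor lactate was measured in the data used here. Most of the pathway stayed within a narrow range, and the genes past the threshold were 2 enzymes of long-chain oxidation, both lower. Cpt1a, the rate-limiting enzyme of mitochondrial entry, fell to 68.3% of its control level, and Acadl, the long-chain acyl-CoA dehydrogenase, fell to 77.3%. All 34 genes were tested. The 2 calls are 5.88% of them at an adjusted p of 0.05 by edgeR, against 2.49% of all genes tested, and for lower calls alone 1.07%. At an unadjusted p under 0.05 there were 8 of 34 (23.5%) against 19.6% of all genes. The groups were separate for 8 of 34 (23.5%) against 24.3% of all genes, with 3 higher where the background is 11.9% and 5 lower where it is 12.5%. These shares of unadjusted p-values and of separated groups were near the background. The median log2 fold change of the 34 was 0.03 against 0.01 for all genes, 20 lay above 0 and 14 below (18 to 20 above under the scalings tried), where 51.0% of all genes lay above, and 3 reached an absolute value of 0.5 (10.5% of all genes did). Chondrocyte and adipocyte markers and the Y-linked signal moved with these groups, as given above, and their part in the results below was not tested except where a value is given.

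**Figure D3:**
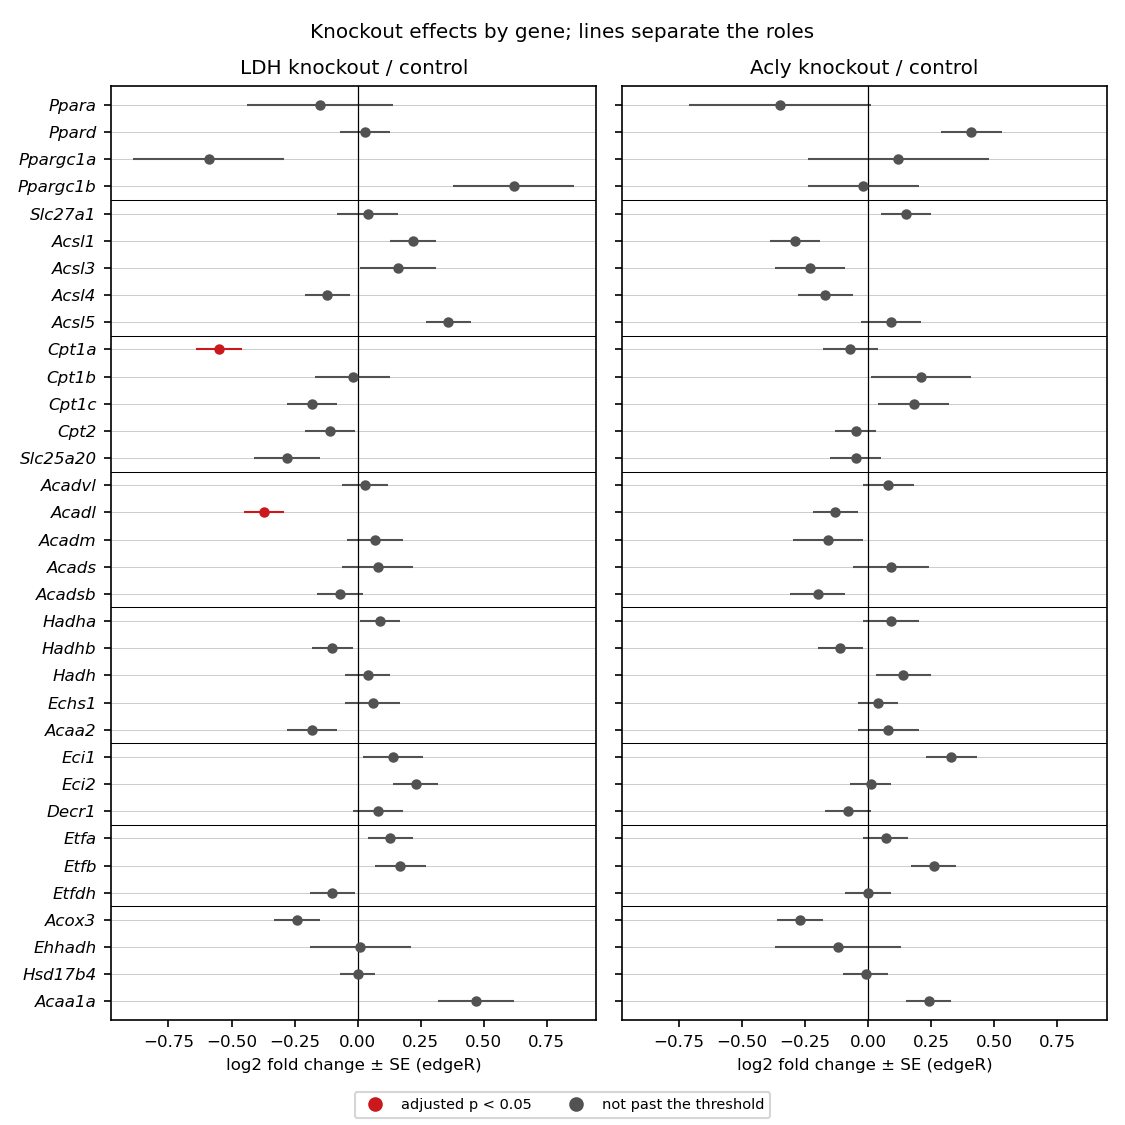
Log2 fold change of knockout over control ± SE by edgeR for each of the 34 genes, LDH on the left and Acly on the right, with lines between the functional roles. Only Cpt1a (-0.55) and Acadl (-0.37) in the LDH comparison, in red, have an adjusted p under 0.05.

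Among the regulators none passed, and the coactivators had log2 fold changes of opposite sign. Ppargc1a, which encodes PGC-1 alpha, was at 0.617, 0.596 and 0.695 CPM in the 3 knockouts and 0.773, 0.989 and 1.13 CPM in controls. All 3 knockouts lay below all 3 controls on this scale, whereas the deposited TPM overlapped (0.17, 0.30 and 0.30 against 0.23, 0.48 and 0.46). The log2 fold change was -0.59 ± 0.30 (SE) with an adjusted p of 0.318 by edgeR. Ppargc1b, which encodes PGC-1 beta, was at 2.40, 3.95 and 2.52 CPM in knockouts and 1.90, 1.94 and 1.91 CPM in controls. The knockouts were all higher, most of all replicate 2. That replicate also had the highest sums of adipocyte, chondrocyte, macrophage and red blood cell markers of the knockouts, at 99.3, 27467, 177 and 24.0 CPM. Sums of skeletal muscle and endothelial markers were highest in replicate 3, and the part of none of them was tested. The log2 fold change of Ppargc1b was 0.62 ± 0.24 with an adjusted p of 0.199 by edgeR, and without knockout replicate 2 it was 0.36 with 0.566. For Ppard and Ppara it was 0.03 ± 0.10 and -0.15 ± 0.29, with overlapping groups.

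Of the genes for uptake and activation, 4 of 5 had log2 fold changes above 0, none of them past the threshold. Acsl5, an acyl-CoA synthetase of mitochondria and endoplasmic reticulum, was at 30.0, 32.4 and 32.2 CPM in knockouts and 26.8, 24.2 and 22.8 CPM in controls. Every knockout sample exceeded every control sample. The log2 fold change was 0.36 ± 0.09 with an adjusted p of 0.0713 by edgeR, and DESeq2 gave 0.35 with an adjusted p of 0.0396. Acsl1, the main synthetase of fat and muscle, was at 79.8, 83.7 and 71.3 CPM in knockouts and 71.7, 64.1 and 65.9 CPM in controls, so that replicate 3 of the knockouts fell within the controls. Its log2 fold change was 0.22 ± 0.09. Slc27a1, a fatty acid transport protein of the cell surface, was at 103.2% of its control level, Acsl3, a synthetase of lipid droplets, at 112.0% and Acsl4 at 92.3%, all with overlapping groups.

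All 5 genes of the carnitine shuttle had log2 fold changes below 0, also with median-of-ratios scaling and with no scaling, and 1 of them passed the threshold. Cpt1a (Entrez 12894) was at 20.0, 21.1 and 22.4 CPM in the LDH knockouts, replicates 1 to 3, while the controls had 32.8, 30.9 and 29.1 CPM. The groups were clearly apart: the highest knockout lay below the lowest control. That lowest control, replicate 3, was the one whose Y-linked signal was low like that of the knockouts. The log2 fold change of Cpt1a was -0.55 ± 0.09 with an adjusted p of 0.0167 by edgeR. Slc25a20, which exchanges acylcarnitine for carnitine across the inner membrane, was at 15.6, 19.7 and 20.9 CPM against 21.5, 20.9 and 26.0 CPM, a log2 fold change of -0.28 ± 0.13 with groups that touched at 20.9 CPM. For Cpt1c, Cpt2, which returns the chain to coenzyme A inside the mitochondrion, and Cpt1b it was -0.18 ± 0.10, -0.11 ± 0.10 and -0.02 ± 0.15. Each had overlapping groups.

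The call of Cpt1a held in 11 of 17 alternatives, among them the fits without knockout replicate 3 (edgeR adjusted p of 0.0123) or control replicate 3 (0.0407). It was lost without knockout replicate 1 (edgeR adjusted p of 0.0891) or 2 (0.0743) and without control replicate 1 (0.068) or 2 (0.0549), with a covariate for the Y-linked signal (0.317) and by limma on unfiltered FPKM (0.0715), while its log2 fold change stayed between -0.59 and -0.40 in all 17 alternatives.

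**Figure D4:**
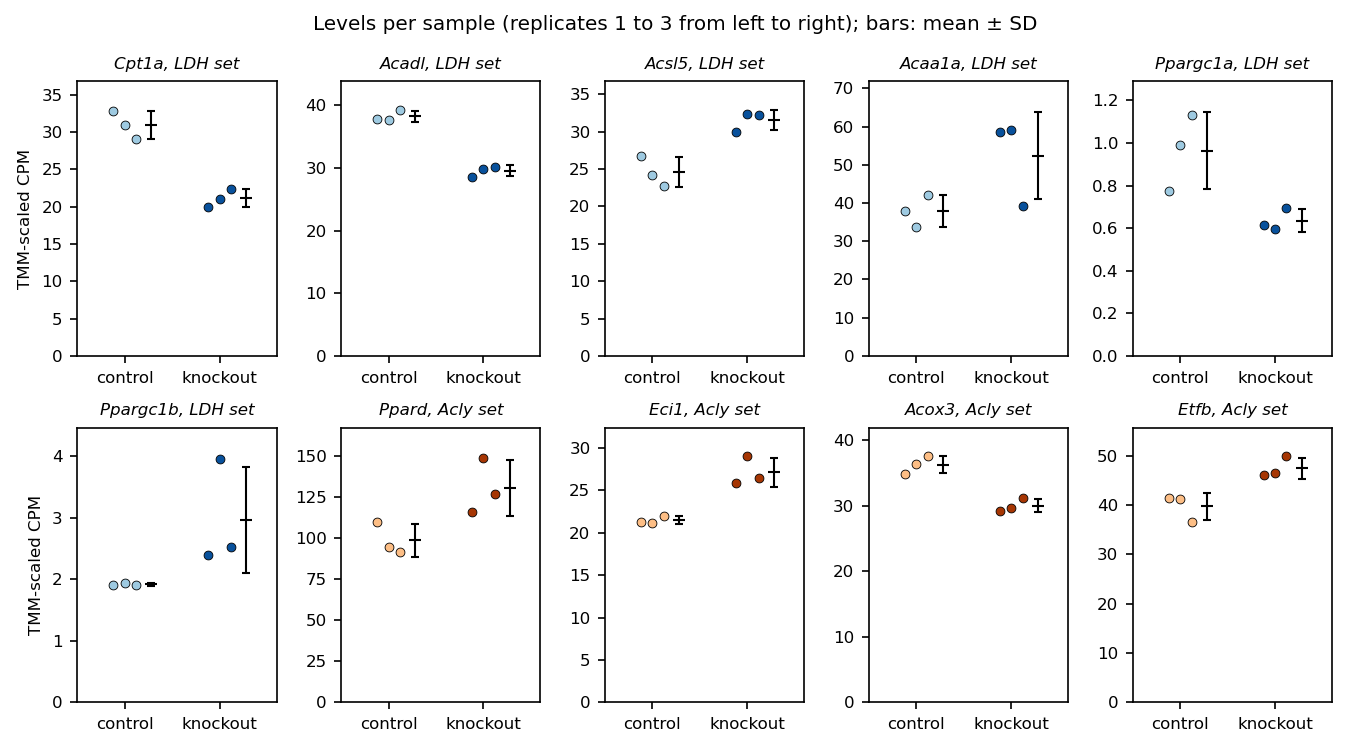
TMM-scaled CPM in each sample for 6 genes of the LDH set and 4 of the Acly set, replicates 1 to 3 from left to right, with the mean ± SD beside each group. Cpt1a and Acadl show knockout samples below all controls, at 20.0 to 22.4 against 29.1 to 32.8 and 28.6 to 30.2 against 37.6 to 39.3 CPM.

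Among the acyl-CoA dehydrogenases, which share the first step of the cycle by chain length, only the long-chain enzyme passed. Acadl (Entrez 11363) was at 28.6, 29.9 and 30.2 CPM in knockouts and 37.8, 37.6 and 39.3 CPM in controls. The samples of each group lay close together and far from the other group. The edgeR log2 fold change of Acadl was -0.37 ± 0.08, adjusted p 0.0366. Acadvl, which takes very long chains, had 0.03 ± 0.09, Acadm for medium chains 0.07 ± 0.11, Acads for short chains 0.08 ± 0.14 and Acadsb for short branched chains -0.07 ± 0.09, each with overlapping groups. The call of Acadl was lost without any 1 of the samples other than knockout replicate 3, with edgeR adjusted p of 0.169 and 0.127 without knockout replicates 1 and 2 and of 0.108, 0.0868 and 0.0733 without control replicates 1 to 3. It was also lost with the Y-linked covariate (0.284) and by limma on unfiltered FPKM (0.0548), at log2 fold changes of -0.43 to -0.34.

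The promoters of these 2 called genes are shown because Cpt1a and Acadl are both textbook targets of the PPAR receptors. The sequences are the 250 bases before the start of each gene in RefSeq, build GRCm38.p6, printed 5′ to 3′ on the strand of the gene. Capitals mark the core nuclear receptor motif AGGTCA on either strand, which reads TGACCT where it lies on the reverse strand. Cpt1a lies on the plus strand (chr19:3323051-3323300) and Acadl on the minus strand (chr1:66863310-66863559).
Cpt1a: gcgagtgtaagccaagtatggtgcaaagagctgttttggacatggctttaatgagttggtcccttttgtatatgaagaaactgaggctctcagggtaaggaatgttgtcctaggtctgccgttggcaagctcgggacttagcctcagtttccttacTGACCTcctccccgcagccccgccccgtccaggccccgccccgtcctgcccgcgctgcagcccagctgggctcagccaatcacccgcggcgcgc
Acadl: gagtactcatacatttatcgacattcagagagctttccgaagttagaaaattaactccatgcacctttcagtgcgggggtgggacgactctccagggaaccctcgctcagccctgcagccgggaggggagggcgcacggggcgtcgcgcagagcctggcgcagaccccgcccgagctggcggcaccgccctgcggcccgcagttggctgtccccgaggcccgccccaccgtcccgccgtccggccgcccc
The Cpt1a window holds 1 such motif, whose first base lies 94 bases before the start, and the Acadl window holds none. With the 50 bases after the start included, AGGTCA on either strand was found in 5 of 32 windows (15.6%) of the 29 matched genes, against 16.3% of 32851 promoter windows of the same length. The genes that held it were Acadm, Acadvl, Cpt1a, Cpt1c and Echs1. Its direct repeat, 2 copies of AGGTCA in the same direction with any 1 base between, contains the shorter motif and was in 0 of 32 windows, against 0.0396% of all windows. The share of these genes with the motif was thus near that of all promoters, and a match is a description of letters only.

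No enzyme that finishes the mitochondrial cycle passed the threshold. Hadha, Hadhb, Hadh and Echs1, which form the trifunctional protein or act on shorter chains as dehydrogenase and hydratase, had log2 fold changes of 0.09, -0.10, 0.04 and 0.06 with SE of 0.08 to 0.11. Acaa2, the medium-chain thiolase, was at 14.8, 16.6 and 15.0 CPM in knockouts and 18.1, 16.7 and 17.9 CPM in controls. The knockouts lay just below the controls, separated by the difference between 16.6 and 16.7 CPM, and the log2 fold change was -0.18 ± 0.10. The enzymes for unsaturated chains, Eci1, Eci2 and Decr1, had 0.14 ± 0.12, 0.23 ± 0.09 and 0.08 ± 0.10. Of these, Eci2 was at 35.0, 35.1 and 30.0 CPM against 29.5, 26.6 and 29.3 CPM, with no overlap and an adjusted p of 0.215 by edgeR. Etfa and Etfb, the subunits of the electron transfer flavoprotein, had 0.13 ± 0.09 and 0.17 ± 0.10, and Etfdh, which hands their electrons to ubiquinone, had -0.10 ± 0.09.

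No peroxisomal gene passed the threshold by edgeR. Acaa1a, the thiolase, was at 58.7, 59.2 and 39.2 CPM in knockouts and 37.8, 33.7 and 42.2 CPM in controls. Knockout replicates 1 and 2 stood above all controls and replicate 3 among them. Of the knockouts, replicate 3 also had the lowest sums of adipocyte, chondrocyte, macrophage and red blood cell markers, at 39.2, 18144, 97.3 and 9.32 CPM. Its sums of skeletal muscle and endothelial markers were the highest, and the part of none of them was tested. The log2 fold change of Acaa1a was 0.47 ± 0.15 with an adjusted p of 0.139 by edgeR. Without knockout replicate 3 it was 0.64 with an edgeR adjusted p of 0.0105, and DESeq2 on all samples gave 0.46 with 0.0499. With the Y-linked covariate it was 0.18 with an edgeR adjusted p of 0.812, and without knockout replicates 1 or 2 or control replicate 2 it was 0.38, 0.37 and 0.38 with 0.397, 0.385 and 0.324. Acox3, an oxidase of branched chains, was at 31.4, 25.6 and 29.9 CPM against 34.2, 33.0 and 35.2 CPM, all knockouts below all controls, which edgeR gave as a log2 fold change of -0.24 ± 0.09 (adjusted p 0.208). Hsd17b4, the peroxisomal multifunctional enzyme, was at 100.1% of its control level and Ehhadh at 100.4%.

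The Acly knockout, made by the submitters to lower acetyl-CoA in the cytoplasm, was compared with its own controls. Acetyl-CoA was not measured in the data used here. None of the 34 genes passed the threshold, and every log2 fold change lay between -0.35 and 0.41. The genes with the lowest p were Ppard, Eci1, Acox3 and Etfb, of which Acox3 was lower and the others higher in the knockout. The count was 0 by edgeR, where 0.136% of all genes passed, and also 0 by DESeq2 and by limma. At an unadjusted p under 0.05 there were 6 of 34 (17.6%) by edgeR against 15.8% of all genes. Groups did not overlap for 7 of 34 (20.6%) against 22.0% of all genes, 4 higher where the background is 10.7% and 3 lower where it is 11.3%. All of these shares were close to the background. The median log2 fold change was 0.00, also 0.00 over all genes, with 17 genes above 0 and 17 below (15 to 18 above under the scalings tried), where 49.7% of all genes lay above, and none of the 34 reached an absolute value of 0.5 (9.74% of all genes did). Without knockout replicate 2, the sample that stood apart, 0 of the 34 passed by edgeR, with 5 at an unadjusted p under 0.05, although the count over all genes rose from 19 to 132.

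Ppard, the most abundant regulator, was at 116, 149 and 127 CPM in the Acly knockouts, replicates 1 to 3, and 110, 94.4 and 91.6 CPM in controls. All knockouts were above all controls, with replicate 2 the highest. Its log2 fold change was 0.41 ± 0.12 with an adjusted p of 0.238 by edgeR. Ppara, Ppargc1a and Ppargc1b had -0.35 ± 0.36, 0.12 ± 0.36 and -0.02 ± 0.22, and in each of them knockout replicate 2 was the lowest of the 6 samples.

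Uptake and activation genes showed no call. Acsl1 was at 51.4, 50.0 and 41.0 CPM in knockouts and 56.9, 57.0 and 60.4 CPM in controls, all knockouts lower. The log2 fold change of Acsl1 was -0.29 ± 0.10 with an adjusted p of 0.268 by edgeR. Acsl3, Acsl4, Acsl5 and Slc27a1 had -0.23 ± 0.14, -0.17 ± 0.11, 0.09 ± 0.12 and 0.15 ± 0.10, all with overlapping groups. In the carnitine shuttle Cpt1a was at 48.6, 45.4 and 57.9 CPM in knockouts and 55.1, 53.1 and 51.7 CPM in controls, so that its groups overlapped, and its log2 fold change was -0.07 ± 0.11. Cpt1c, Cpt1b, Cpt2 and Slc25a20 had 0.18 ± 0.14, 0.21 ± 0.20, -0.05 ± 0.08 and -0.05 ± 0.10.

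The dehydrogenases and the rest of the mitochondrial cycle were likewise without a call. Acadl was at 62.8, 54.3 and 61.7 CPM in knockouts and 67.8, 63.5 and 64.6 CPM in controls, all knockouts lower, at -0.13 ± 0.09 on the log2 scale (edgeR adjusted p 0.465). Acadvl, Acadm, Acads and Acadsb ranged from -0.20 to 0.09 and overlapped. Hadha, Hadhb, Hadh, Echs1 and Acaa2 ranged from -0.11 to 0.14 and overlapped as well.

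Eci1, the mitochondrial enoyl-CoA isomerase, was at 25.8, 29.0 and 26.5 CPM in Acly knockouts and 21.3, 21.1 and 22.0 CPM in controls. The controls lay within 1 CPM of each other and below all knockouts. Its log2 fold change was 0.33 ± 0.10 with an adjusted p of 0.238 by edgeR. Etfb was at 46.0, 46.4 and 49.9 CPM in knockouts and 41.4, 41.2 and 36.6 CPM in controls, again without overlap, with 0.26 ± 0.09 and an adjusted p of 0.266. Etfb overlaps the coding gene Cldnd2 in RefSeq, as Acsl3 does Utp14b, Echs1 Paox and Etfdh Ppid, and since the use of strand is not given, reads of these neighbours may be mixed. Eci2 and Decr1 had 0.01 ± 0.08 and -0.08 ± 0.09, and Etfa and Etfdh 0.07 ± 0.09 and 0.00 ± 0.09.

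Among peroxisomal genes, Acox3 was at 29.2, 29.7 and 31.1 CPM in Acly knockouts and 34.9, 36.3 and 37.6 CPM in controls. All knockouts lay below all controls, at -0.27 ± 0.09 on the log2 scale (edgeR adjusted p 0.252). Acaa1a was at 46.3, 49.4 and 43.2 CPM against 40.8, 37.6 and 39.2 CPM, all knockouts higher, with 0.24 ± 0.09 and an adjusted p of 0.274. Hsd17b4 and Ehhadh had -0.01 ± 0.09 and -0.12 ± 0.25. Summed skeletal muscle markers were 128 to 298 CPM in Acly knockouts, lowest in replicate 2, and 263 to 359 CPM in controls, with all 10 markers below 0 in log2 fold change, 0 called by edgeR (2 at an unadjusted p under 0.05) and none at 0, and their part in these values was not tested.

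The effects of both deletions were then tested against each other in a fit of all 12 samples, in which the gene deleted, age and line cannot be told apart. None of the 34 passed by edgeR, where 0.161% of all genes did, and 3 of 34 had an unadjusted p under 0.05, against 13.0% of all genes. Acsl1, with 116.5% of its control level in the LDH knockout and 81.7% in the Acly knockout, had a log2 difference of effects of 0.53 ± 0.13 (LDH minus Acly), for which edgeR gave an adjusted p of 0.157. DESeq2 gave 0.50 with an adjusted p of 0.0438 for Acsl1 and called no other of the 34, and limma called 0. Cpt1a, with 68.3% and 95.1% of its control levels, had -0.46 ± 0.14 with an adjusted p of 0.233 by edgeR, so that its fall was not shown to be particular to the LDH knockout. Acadl, with 77.3% and 91.3%, had -0.23 ± 0.11 and an adjusted p of 0.414, and Ppard, with 102.2% and 132.5%, had -0.36 ± 0.16 and 0.362 by edgeR. Acox3 was below control in every sample of both knockouts, at 85.0% and 82.7%, with a log2 difference of 0.06 ± 0.12.

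Other genes of fatty acid handling, 86 of them in the table in 7 lists, gave the wider setting. In the LDH comparison 78 were tested and 0 passed by edgeR, where 2.49% of all genes did. At an unadjusted p under 0.05 there were 15 (19.2%), against 19.6% of all genes. DESeq2 called 5, Acad8, Dbi, Mgll, Pdk4 and Phyh, and limma 1, Acad8, or 0 without a filter. Among other edgeR fits, those without scaling or without a filter called Acad8, and that of all 12 samples called Dbi. Without knockout replicate 3 edgeR called 4, all but Mgll of the 5 called by DESeq2. Acad8, the isobutyryl-CoA dehydrogenase of valine breakdown, had the lowest adjusted p of those named, 0.052, at 25.2 ± 2.56 against 34.2 ± 2.40 CPM (SD, n = 3), and DESeq2 gave it an adjusted p of 0.00797. Dbi, which carries acyl-CoA in the cytoplasm, was at 34.4 ± 4.80 against 25.5 ± 1.46 CPM with an edgeR adjusted p of 0.074, and Fabp5, a fatty acid binding protein, at 146.4% of its control level with 0.241. For Fabp5 the log2 fold change, 0.55 on all samples, was 0.24 without knockout replicate 2 and 0.30 with the Y-linked covariate. Phyh and Hacl1, enzymes of peroxisomal alpha-oxidation, both stood at 143.5% of control, with adjusted p of 0.101 and 0.177 by edgeR. Pparg, the receptor of fat cells, was at 147.1% with 0.0897, and belongs to the adipocyte markers as well. Pdk4, a kinase that holds pyruvate back from oxidation, was at 4.43, 2.20 and 6.25 CPM against 9.48, 7.81 and 8.26 CPM, with no overlap, a log2 fold change of -0.99 ± 0.30 and an edgeR adjusted p of 0.11. Without knockout replicate 3, its highest knockout, edgeR gave Pdk4 -1.36 with an adjusted p of 0.021.

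Of the remaining genes named for this comparison, Aldh9a1 and Tmlhe, which make carnitine, were at 87.1% and 88.6% of control, and Mut, the methylmalonyl-CoA mutase, at 83.1%. Acat1 and Bdh1 of ketone body metabolism were at 117.8% and 132.8%. The lipases Mgll and Pnpla2 were at 174.6% and 89.4%. Their edgeR adjusted p ranged from 0.116 for Mgll to 0.482 for Bdh1. Several of these values shifted when 1 sample was left out. For Bdh1 the log2 fold change went from 0.41 to 0.10 without control replicate 2 and to 0.66 without control replicate 3. That of Acat1 went from 0.24 to 0.10 without knockout replicate 2, and that of Pnpla2 from -0.16 to -0.25 without control replicate 1 and to -0.03 without control replicate 3. With the Y-linked covariate that of Mgll went from 0.80 to 0.43.

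In the Acly comparison 79 of these other genes were tested and 1 (1.27%) passed by edgeR, against 0.136% of all genes. Angptl4, a secreted inhibitor of lipoprotein lipase and a PPAR target, was at 82.2, 85.5 and 89.3 CPM in knockouts and 158, 133 and 159 CPM in controls. The groups were far apart, and Angptl4 fell to 57.1% of control, at -0.81 ± 0.10 on the log2 scale (edgeR adjusted p 0.0313). It was lost in 8 of 17 alternatives, among them the fits without knockout replicate 1 (0.0622) or 3 (0.123) and without control replicates 1 to 3 (0.109, 0.0648 and 0.233), at log2 fold changes of -0.89 to -0.76. In the LDH set Angptl4 was at 234, 633 and 516 CPM against 796, 620 and 838 CPM, where knockout replicate 2 lay above 1 control, with -0.70 ± 0.29 and an adjusted p of 0.218 by edgeR. DESeq2 called Slc27a6 as well. A total of 10 of the 79 (12.7%) had an unadjusted p under 0.05 in the Acly comparison. Slc27a6, a fatty acid transport protein, was at 58.5% of control with an edgeR adjusted p of 0.219, and Fabp3, the fatty acid binding protein of muscle, at 162.9% with 0.223. Pdk4 was at 3.98, 3.71 and 4.55 CPM against 5.81, 5.98 and 5.69 CPM, again with no overlap, and had an adjusted p of 0.253 by edgeR. The others named, Tmlhe, Crat, Pccb, Hsd17b10, Acot4, Bdh1, Mgll and Pnpla2, had adjusted p between 0.266 and 0.479 by edgeR.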

How the data were processed

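RNA-seq of 12 samples was used as 1 table deposited by the authors, with expected counts, FPKM and TPM per gene and sample. The submitters' processing notes name HISAT2 2.0.4 and build mm9. The counting program, annotation and use of strand are not given in the sources used here. Between 7.32% and 8.16% of deposited counts are not whole, so they were handled like estimated (expected) counts and rounded. Of the gene identifiers, 17814 were found in RefSeq (GRCm38.p6), used for names, neighbours and promoters.

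Each knockout was tested against its control in a fit of 6 samples, and the difference of effects in 12, with edgeR 4.0.16 in R 4.3.3 (TMM, filterByExpr, quasi-likelihood F test, Benjamini-Hochberg over all genes, threshold 0.05, two-sided). The SE was derived from the fold change and F (log2 fold change over the root of F). Levels are TMM-scaled CPM, or deposited TPM between genes. Alternatives used DESeq2 1.42.0, limma 3.58.1 on log2(FPKM + 0.1) or log2(FPKM + 1) with deposited FPKM of at least 0.5, other scalings and filters, covariates and left-out samples. Scripts were tested on simulated data. Floors cover counting error only.

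The 34 genes and all lists were chosen with earlier results of these data known. Values per sample are given for genes with an adjusted p under 0.05, the 4 lowest p per comparison, an absolute log2 fold change of at least 0.5 and the 3 highest TPM, and for some others chosen after their values were seen. Of other pathway genes, calls and the 2 lowest p per list were named, apart from some not reported here. Of 87 written, 86 were in the table. Mmut, a newer symbol of Mut, was not. Knockouts and controls share the replicate numbers 1 to 3 of their titles, which by themselves pair nothing. Promoter windows were matched for 29 genes, not for Ppargc1b, Cpt1b, Acaa2, Decr1 and Hsd17b4.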

Additional observations from a re-analysis of the deposited data

Results flagged for a closer look

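The effects of the 2 knockouts differed by edgeR's interaction test for 3 of the genes examined here, none of them among the 34 fatty acid genes. For Ldha the effects differed by -3.18 ± 0.14 on the log2 scale (LDH minus Acly, SE) with an adjusted p of 5.52e-08, and Acly had 1.25 ± 0.21 with an adjusted p of 0.0411. Each is the deleted gene of its own comparison. Plin1, the coat protein of lipid droplets in fat cells and a marker of adipocytes, had 4.10 ± 0.71 with an adjusted p of 0.044 by edgeR. Plin1 was at 4.68, 7.45 and 2.67 CPM in LDH knockouts and 0.105, 0.212 and 0.188 CPM in their controls, and at 8.51, 3.63 and 5.53 CPM in Acly knockouts and 4.73, 1.94 and 3.82 CPM in theirs. The LDH controls lie near the level of 3 counts, and the gene deleted, age and mouse line cannot be told apart in this difference. Groups of 3 samples were not tested for a sample far from the others.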

How the results depend on the processing

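In the LDH comparison the count of fatty acid genes with an adjusted p under 0.05 was 2. It was 4 with DESeq2, where Acsl5 and Acaa1a joined, 1 with the replicate block (Cpt1a), and 0 with the Y-linked covariate and by limma on log2(FPKM + 0.1) without a filter. Leaving out 1 sample gave 0 to 3, with 0 without knockout replicates 1 or 2 or control replicates 1 or 2. Other scalings and filters gave 2. In the Acly comparison it was 0 under all 17 alternatives, and for the difference of effects 0 except with DESeq2, which gave 1 (Acsl1). Over all genes the LDH count was 332, against 862 with DESeq2, 3 with the Y-linked covariate, 66 by limma without a filter and 95 to 1068 with 1 sample left out. The Acly count of 19 became 253 with DESeq2, 8 with the replicate block, 5 to 32 under other settings and 0 to 132 with 1 sample left out, and that of the difference went from 23 to 217, 5, 6 to 31 and 5 to 143 in the same order. Bdh1 in the LDH comparison, not past the threshold, changed sign to -0.24 with the Y-linked covariate. Near 0, Hsd17b4 and Ehhadh in the LDH comparison and Echs1, Eci2 and Etfdh in the Acly comparison changed sign under another scaling. The cause was not tested.

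Same-numbered samples did not deviate together, with correlations of 0.064, -0.175 and 0.003 in the LDH set and -0.1, -0.289 and -0.286 in the Acly set, so the block is not used beside the results. Under it Acadl had an adjusted p of 0.0818 and Cpt1a 0.0355 by edgeR. With 3 samples a group, changes of the size seen for most of these genes are poorly resolved. The Y-linked signal was near 0 in all LDH knockouts, so its covariate and the genotype partly coincide. Ppargc1a and Ppara, at under 3 CPM in every sample, have the largest SE.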
